A study of Mus musculus with 48 samples.

Results

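The 3 metallothionein genes Mt1, Mt2 and Mt3, the zinc transporter genes Slc30a1, Slc30a3 and Slc39a10, and Mtf1, the gene of the zinc-sensing transcription factor, were followed in the mouse hippocampus. They were chosen by name as genes of metal buffering and zinc transport, and are 7 of the 57126 gene identifiers in the table. All 7 passed the filter on low counts.

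RNA was sequenced from the hippocampus of 48 mice of the outbred CD-1 strain at 2 months of age. Their dams had received lead (Pb, 100 ppm), manganese (Mn, 2 g/L), Pb + Mn, or no metal named by the labels (control) in drinking water. Dosing ran from 2 weeks before mating to weaning at postnatal day 21, 8 weeks in all, so the offspring were exposed through the dam and then kept until adulthood. There were 6 males and 6 females in each of the 4 treatments, 8 groups in all. The labels do not say which animals were littermates. Since littermates share a dam and her dosing, every p-value here covers only how these 48 animals vary. Libraries came from a stranded mRNA kit, and total counts per library ran from 6273586 to 27639841, with a median of 15076924.

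Metallothioneins are small cysteine-rich proteins that hold zinc and copper ions and also bind toxic metals. Zinc that is free in the cell is sensed by Mtf1, a zinc finger protein that binds metal response elements in front of metallothionein genes and of Slc30a1. In the hippocampus zinc is also stored in the vesicles of glutamatergic terminals, above all those of the mossy fibres, where the Slc30a3 product loads it. Glucocorticoids are a further known inducer of Mt1 and Mt2.

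The promoter sequences of the metallothioneins and of Slc30a1 are shown as background, because Mtf1 acts on such sequences. A part of Mtf1 in the levels or the covariation reported here was not tested. They are RefSeq sequences of GRCm38.p6, on the plus strand, each running 5′ to 3′ from 250 bases before the gene start, and the capitals mark the core of the metal response element, TGCACNC or TGCGCNC on either strand.

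Mt1, chr8:94178839-94179118: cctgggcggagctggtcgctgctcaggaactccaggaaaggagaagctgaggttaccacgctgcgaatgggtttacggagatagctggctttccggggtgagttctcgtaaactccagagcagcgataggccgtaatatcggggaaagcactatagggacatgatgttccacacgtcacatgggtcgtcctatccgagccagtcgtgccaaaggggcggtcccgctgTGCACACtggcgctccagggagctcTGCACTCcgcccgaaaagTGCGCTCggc
Mt2, chr8:94172368-94172647: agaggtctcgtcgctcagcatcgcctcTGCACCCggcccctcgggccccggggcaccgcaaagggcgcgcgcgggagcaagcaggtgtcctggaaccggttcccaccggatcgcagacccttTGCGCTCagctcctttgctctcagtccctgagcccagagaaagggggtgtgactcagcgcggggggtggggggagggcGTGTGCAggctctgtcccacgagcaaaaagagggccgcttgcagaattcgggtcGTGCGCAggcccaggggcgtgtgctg
Mt3, chr8:94152357-94152636: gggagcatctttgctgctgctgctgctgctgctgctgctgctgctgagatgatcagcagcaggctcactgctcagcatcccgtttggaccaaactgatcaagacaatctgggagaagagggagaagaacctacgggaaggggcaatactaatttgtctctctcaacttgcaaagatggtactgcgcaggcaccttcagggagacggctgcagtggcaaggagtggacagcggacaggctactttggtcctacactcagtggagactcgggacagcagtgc
Slc30a1, chr1:191906531-191906810: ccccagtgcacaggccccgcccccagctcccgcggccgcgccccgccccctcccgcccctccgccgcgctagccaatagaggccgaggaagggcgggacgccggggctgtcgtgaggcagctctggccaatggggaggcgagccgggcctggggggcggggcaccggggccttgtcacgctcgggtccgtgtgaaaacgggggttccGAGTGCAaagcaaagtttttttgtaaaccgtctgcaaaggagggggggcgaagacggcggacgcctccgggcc

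Within the whole RefSeq window of 300 bases, which ends 50 bases after the start, the core occurred 4 times for Mt2, 3 times for Mt1, 2 times for Slc30a1 and 1 time for Mt3. The Mt3 match begins in the last 3 bases printed and runs past them, so it is not in capitals, and the second Slc30a1 match lies beyond the last base printed. Of 32851 such windows over all genes, 25.7% held at least 1 match, 7.11% at least 2, 1.97% at least 3 and 0.517% at least 4. Of the other members, 1 of the 2 windows of Slc30a3 held 1 match, and none was found in the 2 windows of Slc39a10 or the 1 window of Mtf1. A match is a run of letters and not a measured binding site, and bases outside these windows were not searched. In RefSeq's order of protein-coding genes on chromosome 8 the family stands together, as Bbs2, Mt4, Mt3, Mt2, Mt1 and Nup93. Mt4, the family member of stratified epithelium, had 0 to 2 counts per library.

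Levels were compared between genes per kilobase of the first GENCODE transcript, in CPM (counts scaled to a common library total, after adjustment by the trimmed mean of M-values, TMM). Mt3, the metallothionein known for its expression in brain, had the highest level, with a median over 48 libraries of 613 CPM per kb (range 375 to 1577). Mt1 followed at 390 CPM per kb (227 to 681), and Mt2 at 52.5 CPM per kb (21.3 to 96.8). The order Mt3, Mt1, Mt2 held in 48 of 48 libraries at each step.

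The transporters and the transcription factor were lower. Slc30a3, whose product fills synaptic vesicles with zinc, had a median of 37.5 CPM per kb (21.2 to 60), and it was below Mt2 in 38 of 48 libraries, so those neighbours in the order overlapped. Slc39a10, a plasma membrane zinc importer, had 23.2 CPM per kb (15.8 to 30.2). Slc30a1, the exporter that removes zinc from the cell, had 6.94 CPM per kb (4.35 to 11.3), and Mtf1 had 4.63 CPM per kb (3.24 to 5.42). Slc30a3 lay above Slc39a10 in 47 libraries, and the remaining steps held in 48 of 48. Lengths of all merged exons in place of the first transcript gave the same order of medians, with Mt3 at 308 and Mt1 at 172 CPM per kb.

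Of the members, the metallothioneins also varied most between animals of 1 group. The within-group standard deviation (SD) of log2 CPM was 0.53 for Mt2, 0.40 for Mt3 and 0.39 for Mt1. Each was set beside the 1000 genes nearest in mean level, where it exceeded 98.2%, 94.9% and 94.6% of them. Over all tested genes the 3 SDs stood at percentiles 83.2, 70.3 and 70.0. The genes of like level were not matched for transcript length, and the metallothionein genes are short. Slc30a3 had an SD of 0.33, above 89.7% of genes of like level. Slc30a1 (0.22), Slc39a10 (0.20) and Mtf1 (0.15) were ordinary or low in this respect, at 57.7%, 41.4% and 19.8%.

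**Figure D1:**
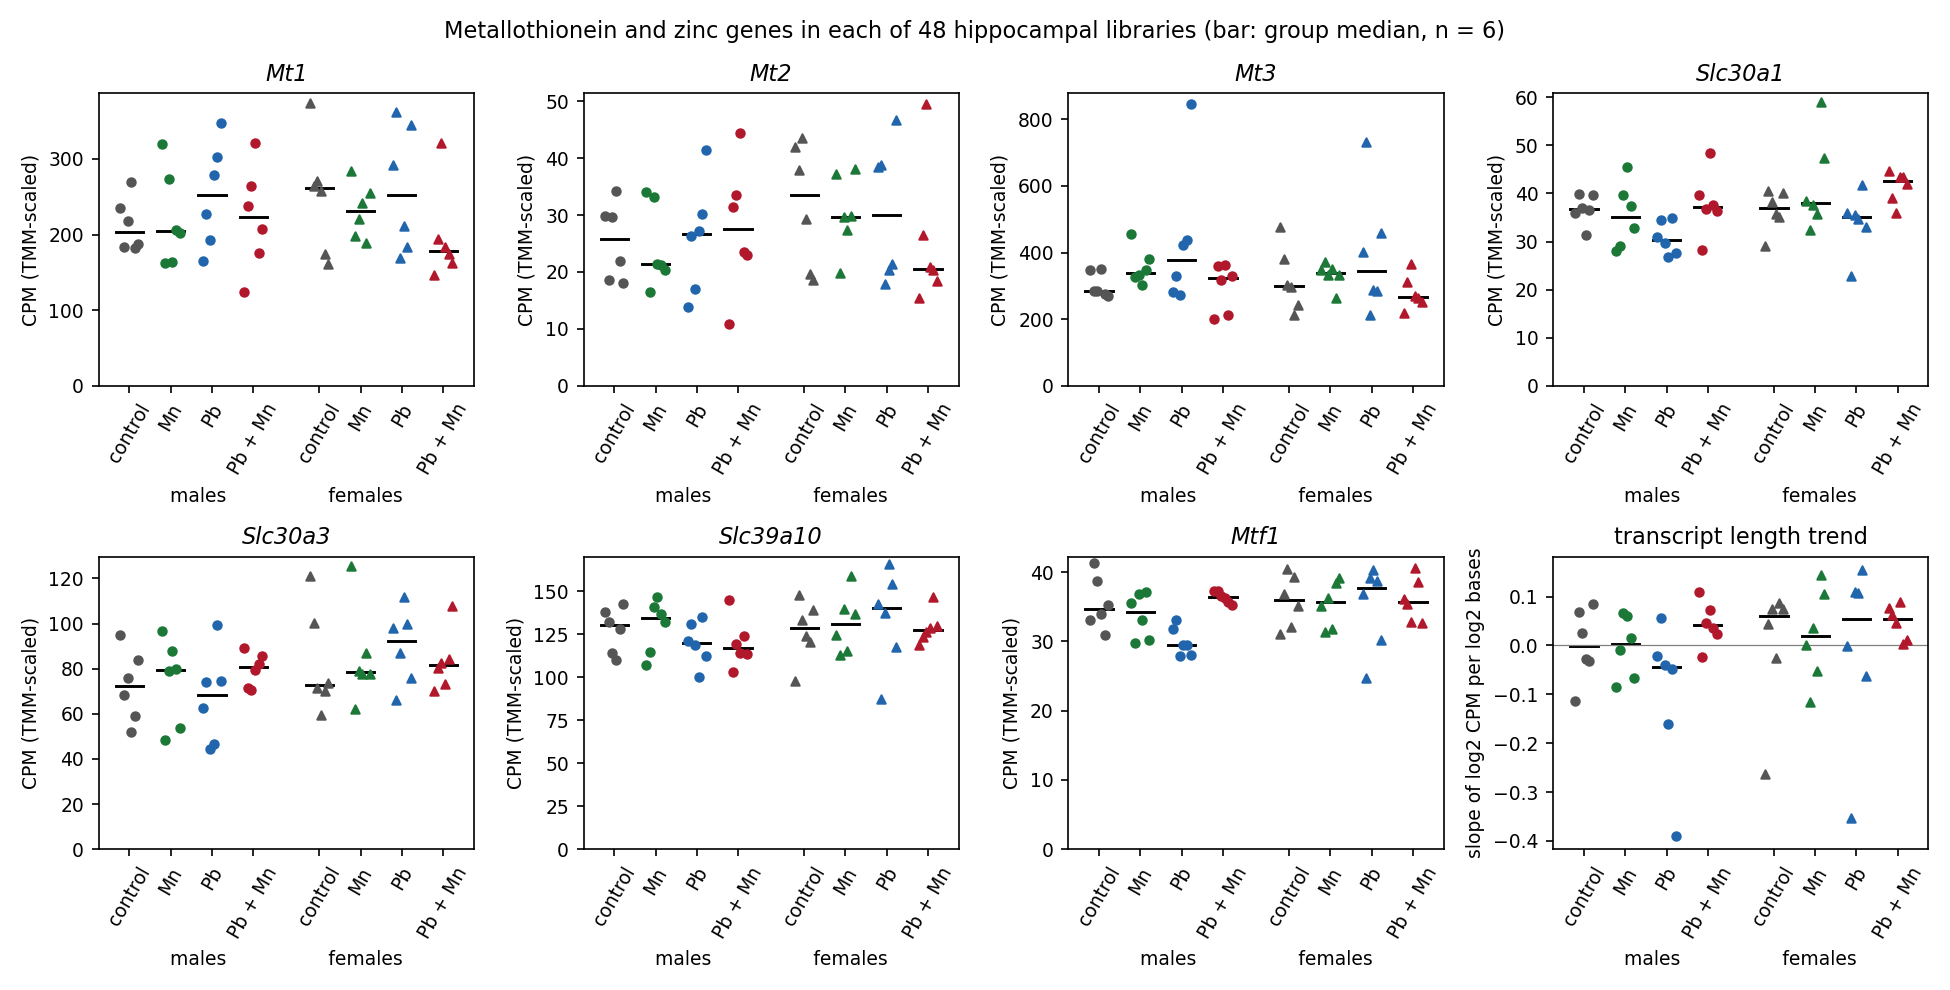
CPM of each of the 7 genes in 48 libraries by sex and treatment (vertical axes from 0, 1 point per animal, bar at the group median), with the transcript length trend of each library in the last panel. The groups overlap for nearly every gene, and the 2 highest Mt3 points, 845 CPM in male Pb and 731 CPM in female Pb, belong to the libraries with the lowest length trend.

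To ask whether developmental exposure left a lasting change in metal handling, each exposed group was compared with the controls of its sex, and the sexes were averaged. No member rose or fell by the adjusted threshold of 0.05 in any of the 20 comparisons (edgeR quasi-likelihood test, Benjamini-Hochberg adjustment over 16360 genes). The background was as empty: 0% of all genes passed in each of the 18 comparisons that involve an exposure, 0.0428% passed between female and male controls, and 0.104% between the sexes over the 4 treatments. DESeq2 and limma voom also called 0 members in every comparison. At an unadjusted p under 0.05 there were 12 of 140 member tests, beside 5.42% of the tests of all genes in the same 20 comparisons, and the smallest adjusted p of a member was 0.093, for Mtf1. The comparisons share their control and Pb libraries, so they are not independent of each other.

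**Figure D2:**
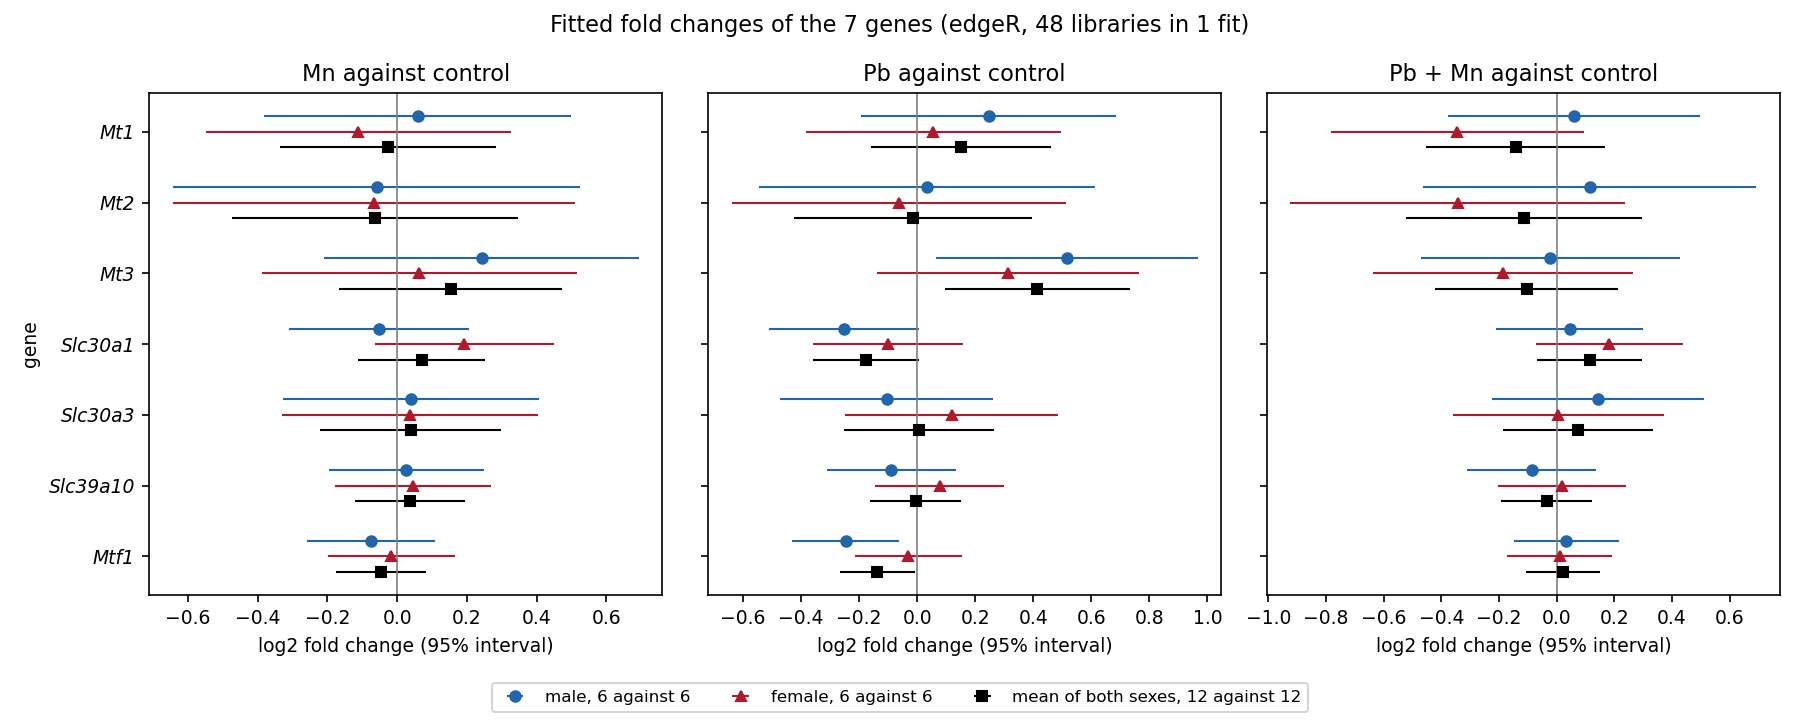
Fitted log2 fold changes of the 7 genes with 95% intervals for Mn, Pb and Pb + Mn against control, in males, in females and as the mean of both sexes. Intervals are widest for Mt2 and narrowest for Mtf1, and the intervals of Mt3 for Pb in males (0.06 to 0.97) and over both sexes (0.10 to 0.73), and of Mtf1 for Pb in males (-0.43 to -0.06) and over both sexes (-0.27 to -0.01), leave out 0 before adjustment.

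For Mn, the fitted values of Mt1 and Mt2 were smaller than their errors. Mt1, with a median of 203 CPM in male controls (182 to 270), had 204 CPM in male Mn (162 to 320). The female medians were 261 CPM in controls (161 to 374) and 231 CPM in Mn (189 to 283). Both pairs of groups overlapped through most of their range, with log2 fold changes of 0.06 ± 0.22 in males and -0.11 ± 0.22 in females (SE; edgeR adjusted p = 1 in each sex). Mt2 had -0.06 ± 0.29 and -0.07 ± 0.29, and Mt3 had 0.24 ± 0.22 and 0.06 ± 0.22, in the same order. For Mt2 in females the 95% interval ran from -0.64 to 0.51, so changes up to those sizes were not excluded with 6 animals a group. Of the members, 0 had an unadjusted p under 0.05 in either sex, beside 2.25% of all genes in males and 2.62% in females. Their median log2 fold change was 0.03 in males and 0.04 in females, beside -0.0061 and -0.00088 over all genes. Over both sexes 0 members had such a p for Mn, beside 4.55% of all genes, and 0 for Pb + Mn, beside 4.58%. No member's groups were free of overlap for Mn in females, where those of 0.0856% of all genes were.

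Among the exposures, Pb had the largest fitted values for Mt3 in each sex. In male controls Mt3 ran from 270 to 351 CPM with a median of 284, and in male Pb from 272 to 845 CPM with a median of 377. Female controls ran from 213 to 476 CPM (median 299) and female Pb from 212 to 731 CPM (median 344). The groups overlapped in both sexes, and 1 Pb library in each sex, male Pb 6 and female Pb 2, stood far above its group. The log2 fold change was 0.52 ± 0.22 in males (SE, edgeR adjusted p = 0.36) and 0.31 ± 0.22 in females (adjusted p = 1). Over both sexes it was 0.41 ± 0.16 (adjusted p = 0.34). Without male Pb 6 the male value was 0.22 and the value over both sexes 0.27.

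Those libraries also differ in the length of the transcripts they hold. The transcript length trend of a library is the slope of its centred log2 CPM on log2 exon length over 11765 genes, and a negative slope means that short transcripts are over-represented. It was -0.39 in male Pb 6, -0.35 in female Pb 2 and -0.26 in female control 1, and -0.16 or higher in the other 45 libraries. By group the male Pb libraries ran from -0.39 to 0.06 (median -0.04) and male controls from -0.11 to 0.09 (median -0.001). The Mt genes are short, with merged exons of 588 bases for Mt2, 1066 for Mt3 and 1246 for Mt1 against a median of 3216 over tested genes. With the trend as a covariate the male Mt3 value was 0.14, and the value over both sexes 0.18. Without those 3 libraries these were 0.22 and 0.21.

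Of the 7 genes, Mtf1 had the smallest p for Pb in males. Male controls ran from 30.9 to 41.3 CPM (median 34.6) and male Pb from 27.9 to 33 CPM (median 29.5), so the Pb males lay low with some overlap. The log2 fold change was -0.25 ± 0.09 (SE, edgeR adjusted p = 0.34), and -0.14 with the length trend as a covariate. In females it was -0.03 ± 0.09, with medians of 35.9 CPM in controls and 37.8 CPM in Pb. The difference between the sexes did not pass its own test (0.22 ± 0.13, adjusted p = 0.99), where 0 members and 2.07% of all genes had an unadjusted p under 0.05. In male Pb against control, 2 members had an unadjusted p under 0.05, Mt3 and Mtf1, beside 12.5% of all genes. Over both sexes the same 2 had one, beside 11.5%, and in females 0 did, beside 2.18%. The members' median log2 fold change in females was 0.06, beside 0.0074 over all genes.

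Slc30a1 lay low in Pb males as well. Its median was 36.7 CPM in male controls (31.5 to 40) and 30.4 CPM in male Pb (26.7 to 35), with overlapping ranges and a log2 fold change of -0.25 ± 0.13 (SE, edgeR adjusted p = 0.40). In females the medians were 36.9 and 35.2 CPM, with -0.10 ± 0.13. Over 48 libraries, with group means removed, Slc30a1 had r = 0.74 with the length trend. Its values for Pb against control with that trend as a covariate are not given here. Mt1 had 0.25 ± 0.22 in Pb males and 0.06 ± 0.22 in Pb females, and Mt2 had 0.03 ± 0.29 and -0.06 ± 0.29. Slc30a3 had -0.10 ± 0.18 and 0.12 ± 0.18, and Slc39a10 had -0.09 ± 0.11 and 0.08 ± 0.11. Over the 7 members the median log2 fold change for Pb in males was -0.09, beside 0.0047 over all tested genes. The sign of Slc39a10 in males turned to 0.04 with the length trend as a covariate.

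For Pb + Mn against control, the fitted values of Mt1 and Mt2 lay below 0 in females and above 0 in males. In females Mt1 had a median of 179 CPM in Pb + Mn (147 to 321) against 261 CPM in controls, a log2 fold change of -0.34 ± 0.22 (SE, edgeR adjusted p = 1), and 5 of the 6 exposed females lay between 147 and 194 CPM. Mt2 in the same females had 20.6 CPM (15.3 to 49.5) against 33.6 CPM (18.6 to 43.5), a value of -0.34 ± 0.29. The female control with the most Mt1, female control 1 at 374 CPM, had a length trend of -0.26. In female Pb + Mn the trend ran from 0.004 to 0.09. Its part in these values is not given here. In males the corresponding values were 0.06 ± 0.22 for Mt1 and 0.12 ± 0.29 for Mt2. The difference between the sexes was -0.40 ± 0.31 for Mt1 and -0.46 ± 0.41 for Mt2, with an adjusted p of 1 each. No member had an unadjusted p under 0.05 for Pb + Mn against control in males, beside 2.93% of all genes, or in females, beside 1.64%. The members' medians were 0.04 and 0.0056, beside -0.0083 and -0.00043 over all genes. Every member overlapped between Pb + Mn and control in females, and 0.0733% of all genes did not.

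The smallest p of any member came from Pb + Mn against Pb alone, in males. Mtf1 in male Pb + Mn held 37.2, 37.3, 36.5, 36.2, 35.7 and 35.3 CPM in animals 1 to 6, and in male Pb 31.8, 33, 27.9, 29.5, 29.5 and 28 CPM. Every Pb + Mn male was thus above every Pb male, and this was the 1 pair of groups that did not overlap for any member. In that comparison 0.972% of all genes did not overlap, and in the other comparisons of 2 groups 0.0306% to 0.257% did not. The log2 fold change was 0.28 ± 0.09 (SE, edgeR adjusted p = 0.093), which missed the threshold. Without male Pb 2, the highest Pb male, the adjusted p was 0.045, in a fit where 1479 genes passed in all, and over the leave-one-out fits it ran from 0.045 to 0.58. With the length trend as a covariate the value was 0.13 (adjusted p = 0.75). The length trend ran from -0.02 to 0.11 in male Pb + Mn, against -0.39 to 0.06 in male Pb.

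Mt3 and Slc30a1 pointed in opposite directions in the same contrast. Mt3 ran from 200.9 to 363 CPM in male Pb + Mn (median 325) against 272 to 845 CPM in male Pb, a log2 fold change of -0.54 ± 0.22 (SE, edgeR adjusted p = 0.15). Without male Pb 6 it was -0.24. Slc30a1 had a median of 37.2 CPM in male Pb + Mn (28.3 to 48.4) against 30.4 CPM, a value of 0.30 ± 0.13 (adjusted p = 0.15), and 0.08 with the length trend as a covariate. In all, 3 members had an unadjusted p under 0.05 in this comparison, beside 23.8% of all genes. The members' median was 0.08, beside -0.01 over all genes.

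In females the same 2 genes had similar fitted values with fewer genes around them. Slc30a1 had a median of 42.7 CPM in female Pb + Mn (35.8 to 44.8) and 35.2 CPM in female Pb (22.8 to 41.7), a log2 fold change of 0.28 ± 0.13 (SE, edgeR adjusted p = 0.95). It was 0.22 with the length trend as a covariate and 0.19 without female Pb 2. Mt3 had -0.50 ± 0.22 (adjusted p = 0.95), and -0.24 without female Pb 2. These 2 members had an unadjusted p under 0.05, beside 3.83% of all genes, and the members' median was -0.11, beside -0.0024. Mt1 in this contrast had -0.40 ± 0.22.

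Whether the metals add on the log2 scale was tested by their interaction. In males Mt3 had -0.78 ± 0.32 and Mtf1 0.36 ± 0.13 (SE), each with an edgeR adjusted p of 0.35, and 13.7% of all genes had an unadjusted p under 0.05. This contrast includes male Pb 6, the library with the highest Mt3 level and the lowest length trend. Over 48 libraries, with group means removed, the length trend had r = -0.80 with Mt3 and 0.74 with Mtf1. Interaction values with the trend as a covariate are not given here. In females the interaction values of Mt3 and Mtf1 were -0.56 ± 0.32 and 0.06 ± 0.13 (adjusted p = 0.99 each), and 0 members had an unadjusted p under 0.05, beside 3.09%. Against Mn alone, the combination gave no member an unadjusted p under 0.05 in males (4.03% of all genes) or females (2.55%).

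Between the sexes, averaged over the 4 treatments, the largest member difference was in Slc30a3. Its group medians ran from 68.4 to 80.7 CPM in the 4 male groups and from 72.6 to 92.4 CPM in the 4 female groups. Over the 4 treatments females were higher by 0.22 ± 0.09 on the log2 scale (SE, edgeR adjusted p = 0.66), with wide overlap in each treatment, and 7.45% of all genes had an unadjusted p under 0.05. In controls alone the value was 0.20 ± 0.18, below those of Mt2 (0.32 ± 0.29) and Mt1 (0.24 ± 0.22), and 0 members had an unadjusted p under 0.05, beside 1.31%. Over the 4 treatments, 9 of 10 markers of hippocampal and forebrain neurons were also higher in females (median 0.17). Of 10 markers of thalamus and habenula, 9 were lower in females (median -0.17). The part of tissue composition in the Slc30a3 value was not tested.

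Other genes of zinc and metal handling were listed without the members. Of 24 listed, 19 were tested, 4 had too few counts (Mt4, Slc30a8, Slc39a2 and Slc39a5) and Zng1 was not matched by that symbol. None of the 19 passed in any comparison. For Pb in males 3 of 19 had an unadjusted p under 0.05, 1 higher and 2 lower, beside 12.5% of all genes, and the median was 0.03. For Pb + Mn against Pb in males 7 of 19 had one, 4 higher and 3 lower, beside 23.8%, and for the interaction of the metals in males 6 of 19, 3 in each direction, beside 13.7%. For Pb against control in males the smallest p values were those of Slc39a14 (-0.38 ± 0.11) and Slc30a9 (0.17 ± 0.06), both at an edgeR adjusted p of 0.34. Slc39a14 encodes a zinc and manganese importer, and Slc30a9 a mitochondrial zinc transporter. For Pb in females they were Tmem163 (-0.57 ± 0.37), which encodes a zinc-transporting membrane protein, and Slc39a6 (-0.19 ± 0.15), and 0 of 19 had an unadjusted p under 0.05.

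For Mn in males the list's smallest p values were those of Tmem163 (-0.63 ± 0.36) and Slc39a14 (-0.16 ± 0.11), and in females those of Slc30a10, a manganese exporter (0.21 ± 0.15), and Tmem163 (-0.41 ± 0.37). For Pb + Mn in males they were those of Slc39a7 (0.23 ± 0.15) and Slc39a12 (-0.16 ± 0.11), and in females those of Slc39a13 (0.22 ± 0.13) and Slc30a6 (-0.15 ± 0.12). In each of these 4 comparisons 0 of 19 had an unadjusted p under 0.05 (SE; edgeR adjusted p = 1 each). Over both sexes they were Tmem163 (-0.52 ± 0.26) and Slc39a8 (0.18 ± 0.11) for Mn, Slc39a14 (-0.22 ± 0.08) and Slc39a6 (-0.29 ± 0.11) for Pb, and Slc39a13 (0.19 ± 0.09) and Slc39a7 (0.18 ± 0.11) for Pb + Mn.

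Animals of 1 group differed together in their metallothioneins. After subtraction of group means, log2 CPM of Mt1 and Mt2 correlated at r = 0.94 over 48 libraries (rho = 0.93, adjusted permutation p = 5.3e-05). Before adjustment over 21 pairs the permutation p was 1e-05, the smallest that 100000 resamples within groups can give. Within groups r ran from 0.70 in female Mn to 0.99 in female Pb + Mn and was positive in 8 of 8. Without the 2 libraries farthest from the Mt1 median it was 0.94. Mt1 with Mt3 gave r = 0.84 (rho = 0.88), and Mt2 with Mt3 r = 0.75 (rho = 0.77), both at the same adjusted permutation p, and 0.82 and 0.72 without their 2 farthest libraries. Mt1 with Mt3 was positive in 8 of 8 groups, and Mt2 with Mt3 in 7 of 8, with r = -0.28 in female Mn.

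Against the other 11821 genes whose log2 CPM averaged 2 or more, Mt2 ranked 1 and Mt3 ranked 2 by r with Mt1. By r with Mt3, Mt1 ranked 1 and Mt2 ranked 291, and Mt2 ranked 2 with the length trend removed. The longest identical stretch between transcripts of Mt1 and Mt2 was 20 bases, and of Mt1 and Mt3 27 bases, beside reads of 100 bases. Whether reads were shared between these genes was not tested, and the multi-mapping settings are not given.

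**Figure D3:**
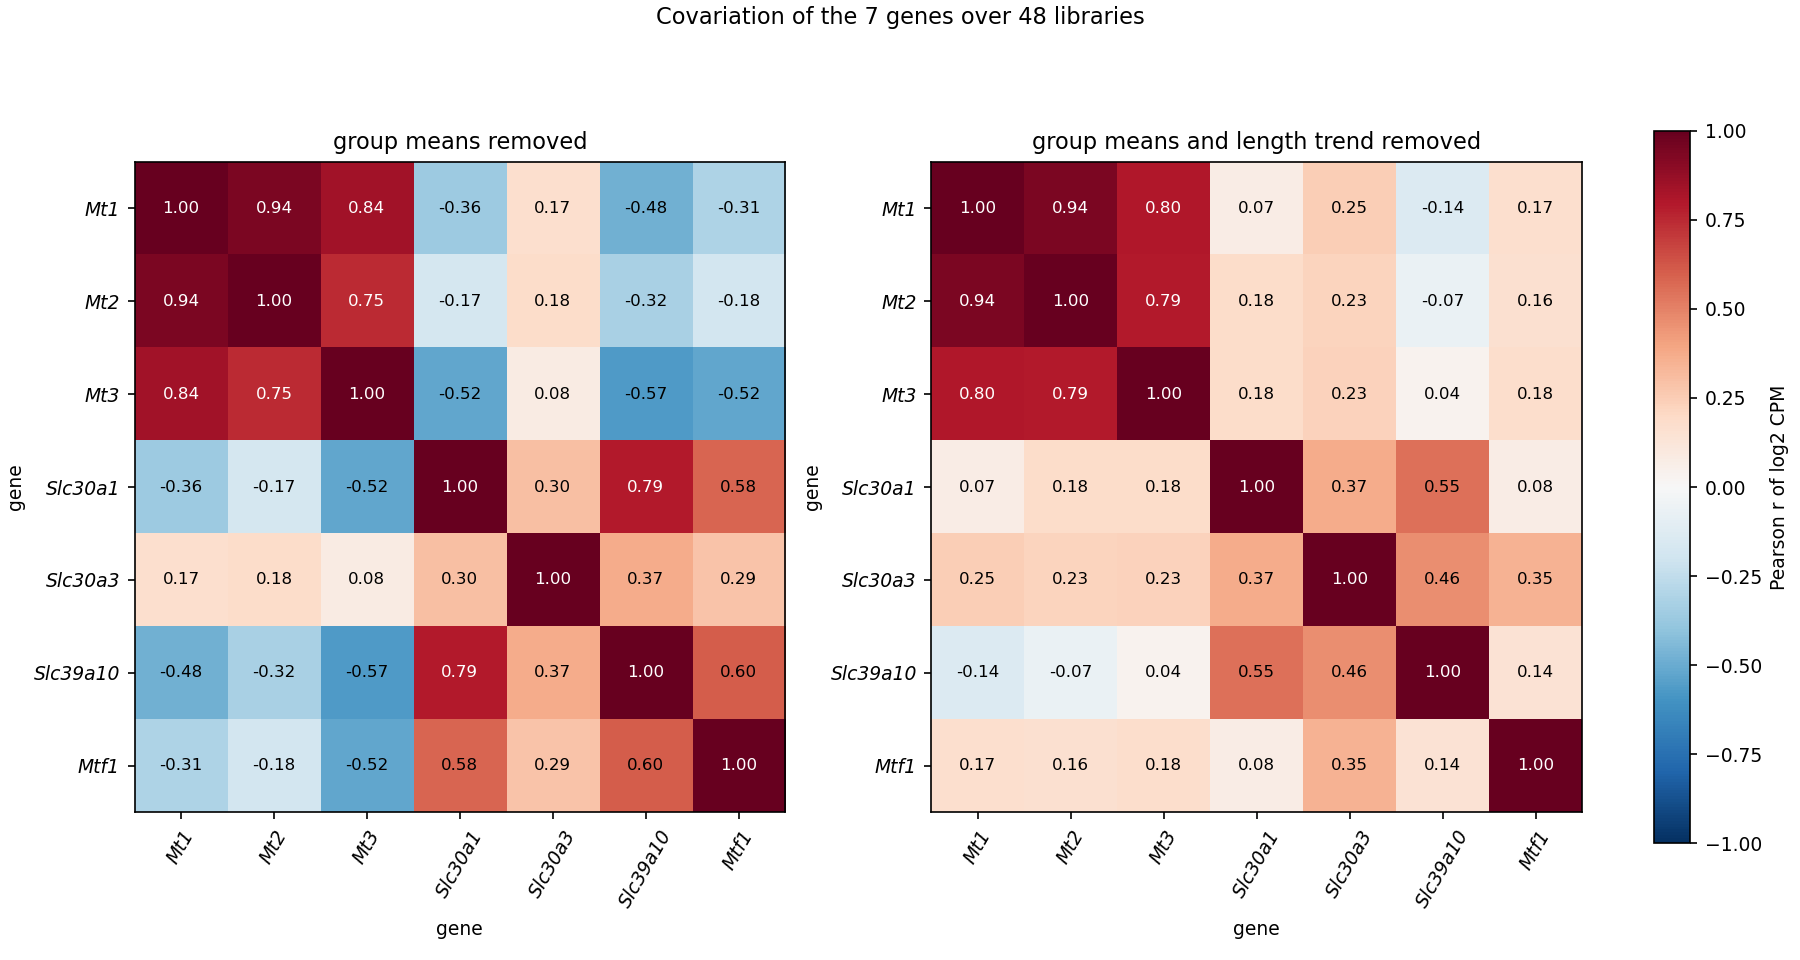
Pearson r between the 7 genes over 48 libraries after removal of group means (left), and after the transcript length trend of each library was also removed (right). The block of Mt1, Mt2 and Mt3 stays between 0.79 and 0.94 on the right, while the negative values between Mt3 and Slc30a1, Slc39a10 and Mtf1 on the left (-0.52 to -0.57) turn to between 0.04 and 0.18.

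Slc30a1, Slc39a10 and Mtf1 also correlated with each other before the length trend was removed. The exporter gene Slc30a1 and the importer gene Slc39a10 correlated at r = 0.79 (rho = 0.77, adjusted permutation p = 5.3e-05), positive in 8 of 8 groups. Slc39a10 with Mtf1 gave r = 0.60 (rho = 0.50, adjusted p = 0.0016 by permutation), and Slc30a1 with Mtf1 r = 0.58 (rho = 0.56, adjusted p = 0.00055 by permutation). Without the 2 farthest libraries these 3 values were 0.71, 0.42 and 0.44. All 3 genes ran against Mt3, with r = -0.52 for Slc30a1, -0.57 for Slc39a10 and -0.52 for Mtf1 (rho = -0.48, -0.50 and -0.40, adjusted permutation p of 0.0023 or less by r). Without the 2 farthest libraries these were -0.41, -0.47 and -0.37. Mt1 ran against Slc39a10 (r = -0.48, rho = -0.43, adjusted permutation p = 0.0043) and against Slc30a1 (r = -0.36, rho = -0.33, adjusted permutation p = 0.033 by r and 0.053 by rho), at -0.37 and -0.31 without the 2 farthest. Slc30a3 correlated with Slc39a10 (r = 0.37, rho = 0.43, adjusted permutation p = 0.031), at 0.34 without the 2 farthest.

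In all, 12 of 21 pairs passed, and 5 did once the length trend was regressed out. Those 5 were the 3 metallothionein pairs (0.94, 0.80 and 0.79), Slc30a1 with Slc39a10 (0.55) and Slc30a3 with Slc39a10 (0.46). The pairs of Mtf1 with Slc30a1 and Slc39a10 were 0.08 and 0.14. Mtf1 had r = -0.31 with Mt1 and -0.18 with Mt2, neither of which passed. With the length trend removed these were 0.17 and 0.16. The negative pairs of Mt3 turned to 0.18 with Slc30a1, 0.04 with Slc39a10 and 0.18 with Mtf1. The length trend itself correlated with Mt3 at r = -0.80 and with Mt1 at -0.55, and with Slc30a1 at 0.74, Mtf1 at 0.74 and Slc39a10 at 0.73, which have long transcripts. Slc30a3, at 2342 merged exonic bases, had r = 0.07. The genes of a library share its normalization and its depth. Over the other 11821 genes the median absolute r was 0.38 with Mt3, Slc39a10 and Mtf1, and 0.37 with Slc30a1. It was 0.26 with Mt1 and with Slc30a3, and 0.21 with Mt2. The r of Slc30a3 with Slc39a10 was thus below the median for Slc39a10. By r with Slc39a10, Slc30a1 ranked 257, Mtf1 1480 and Slc30a3 3347. With the length trend removed they ranked 509, 4419 and 1022, beside a median absolute r of 0.22.

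**Figure D4:**
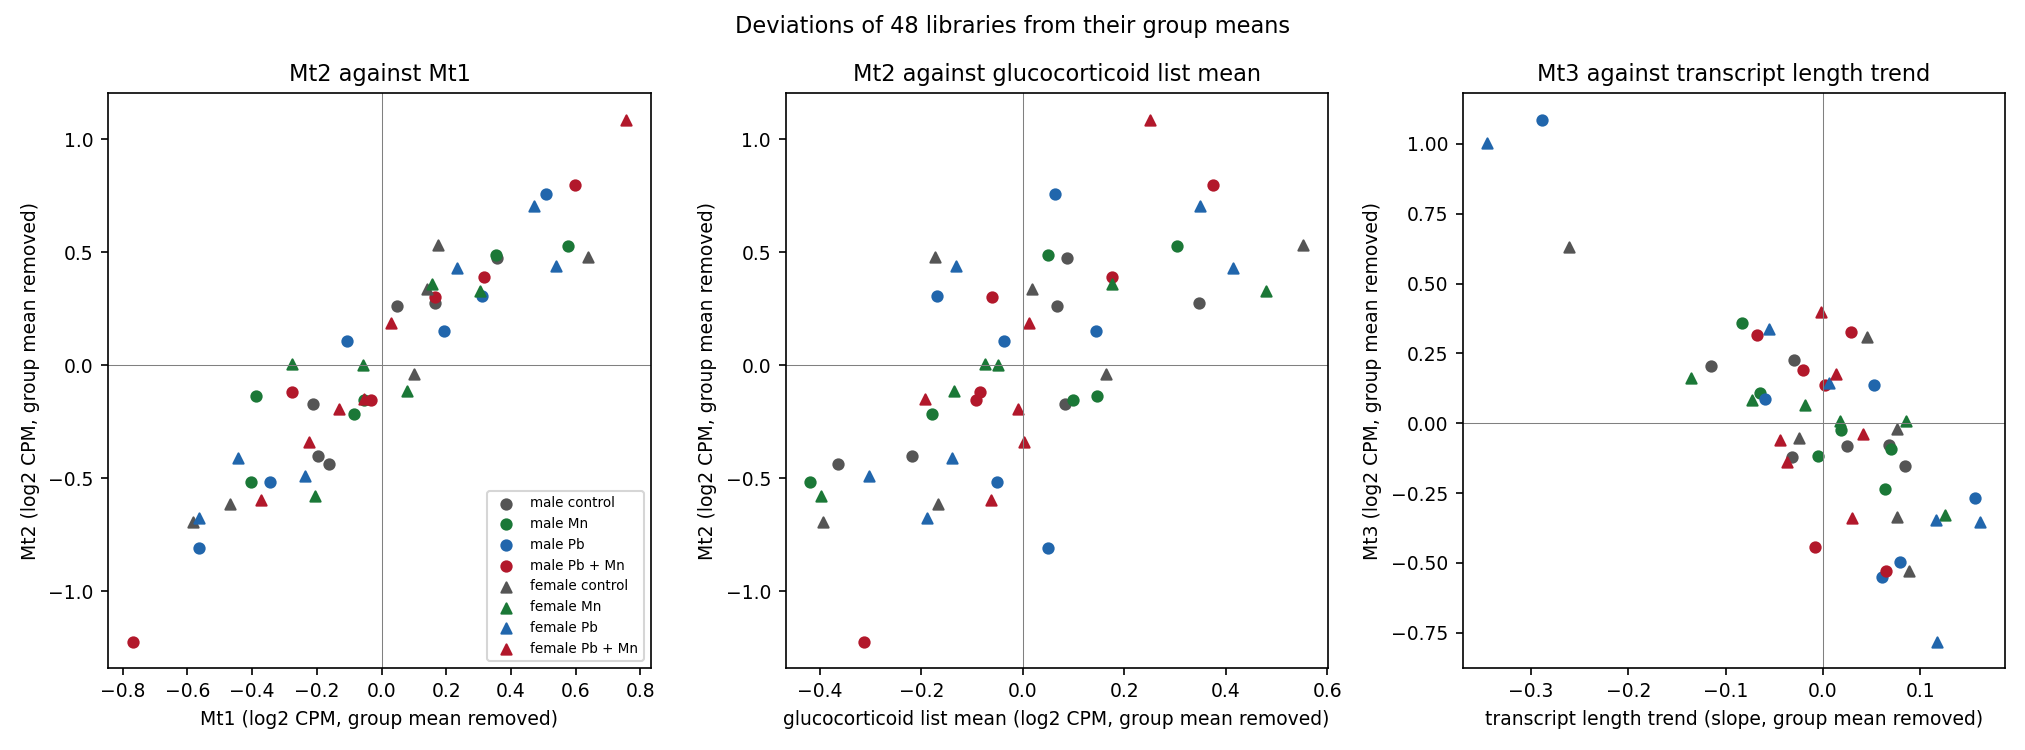
Deviations of each library from its group mean, as Mt2 against Mt1, Mt2 against the mean log2 CPM of glucocorticoid-responsive genes, and Mt3 against the transcript length trend (48 points, colour by treatment, circles males and triangles females). Mt1 and Mt2 lie along 1 line (r = 0.94), and the Mt3 plot (r = -0.80) is drawn out by 3 libraries at the upper left.

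Mt1 and Mt2 also moved with glucocorticoid-responsive genes. Mean log2 CPM of 17 of 18 such genes (among them Fkbp5, Sgk1 and Tsc22d3, with Lcn2 left out for low counts) had r = 0.68 with Mt2 and 0.57 with Mt1 over 48 libraries, with group means removed, and 0.30 with Mt3. These are descriptions with no test. With the length trend removed as well they were 0.71 with Mt2, 0.63 with Mt1 and 0.39 with Mt3. Without the 3 libraries of lowest length trend they were 0.75, 0.69 and 0.49, in the same order. The summed level of the list ran from 755 to 874 CPM in male Pb and from 836 to 1188 CPM in male controls. In females it ran from 807 to 1170 CPM in Pb and from 891 to 1440 CPM in controls. It ran from 635 to 1001 and 689 to 1192 CPM in male and female Mn, and from 821 to 1130 and 833 to 1034 CPM in male and female Pb + Mn. Its part in the metallothionein values was not tested.

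Of all lists, the second largest value for Mt1 (r = 0.56) and Mt2 (r = 0.43) was that of cytosolic ribosomal protein genes, which have short transcripts, and with the length trend removed both were 0.21. For Mt3 that list had the largest value (r = 0.79), followed by oxidative stress and Nrf2 genes (r = 0.73), and these were 0.33 and 0.08 with the length trend removed. All 15 ribosomal protein genes had counts in every library. Their summed level was 10053 CPM at the highest in male Pb and 9863 CPM in female Pb, against medians of 4437 and 3088 CPM in those groups and 3012 and 3100 CPM in male and female controls. Astrocyte markers, 12 of 12 with counts in every library, had r = 0.44 with Mt1, 0.39 with Mt2 and 0.33 with Mt3. With the length trend removed these were 0.35, 0.32 and 0.18. In bulk tissue, fewer cells of a type and less RNA per cell cannot be told apart.

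Slc30a3 had its largest values of r, in each direction, with a neuron list and a list of neighbouring regions. It had r = 0.78 with 10 markers of hippocampal and forebrain neurons, all 10 of which had counts in every library of the labelled tissue, and r = -0.71 with 10 markers of thalamus and habenula, regions that border the hippocampus. With the length trend removed these were 0.88 and -0.72. Among the lists of single neuron types it had r = 0.63 with dentate granule, 0.55 with CA1 pyramidal and 0.41 with interneuron markers, and -0.35 with CA2 and CA3 pyramidal markers. The thalamic markers summed to between 155 and 1254 CPM over the libraries, and Gbx2 alone among them was at 0 in some libraries. By group their highest values were 1254 CPM in male and 1001 CPM in female controls, 716 and 551 CPM in Mn, 963 and 528 CPM in Pb, and 441 and 662 CPM in Pb + Mn, for males and females. Their lowest values were 193 and 218 CPM in controls, 193 and 206 CPM in Mn, 155 and 188 CPM in Pb, and 288 and 188 CPM in Pb + Mn. The part of neighbouring tissue in the Slc30a3 values was not tested.

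For Slc30a1 the largest values were r = -0.71 with the oxidative stress and Nrf2 list and -0.70 with ribosomal protein genes. For Slc39a10 they were 0.75 with neuron markers and -0.74 with the oxidative stress and Nrf2 list. For Mtf1 they were -0.67 with the oxidative stress and Nrf2 list and -0.61 with ribosomal protein genes. With the length trend removed, the neuron markers kept 0.62 with Slc39a10, whereas the other values just named lay between -0.31 and 0.08. Slc30a1 and Mtf1 also had r = 0.68 and 0.60 with the neuron markers, and these were 0.48 and 0.34 with the length trend removed.

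**Figure D5:**
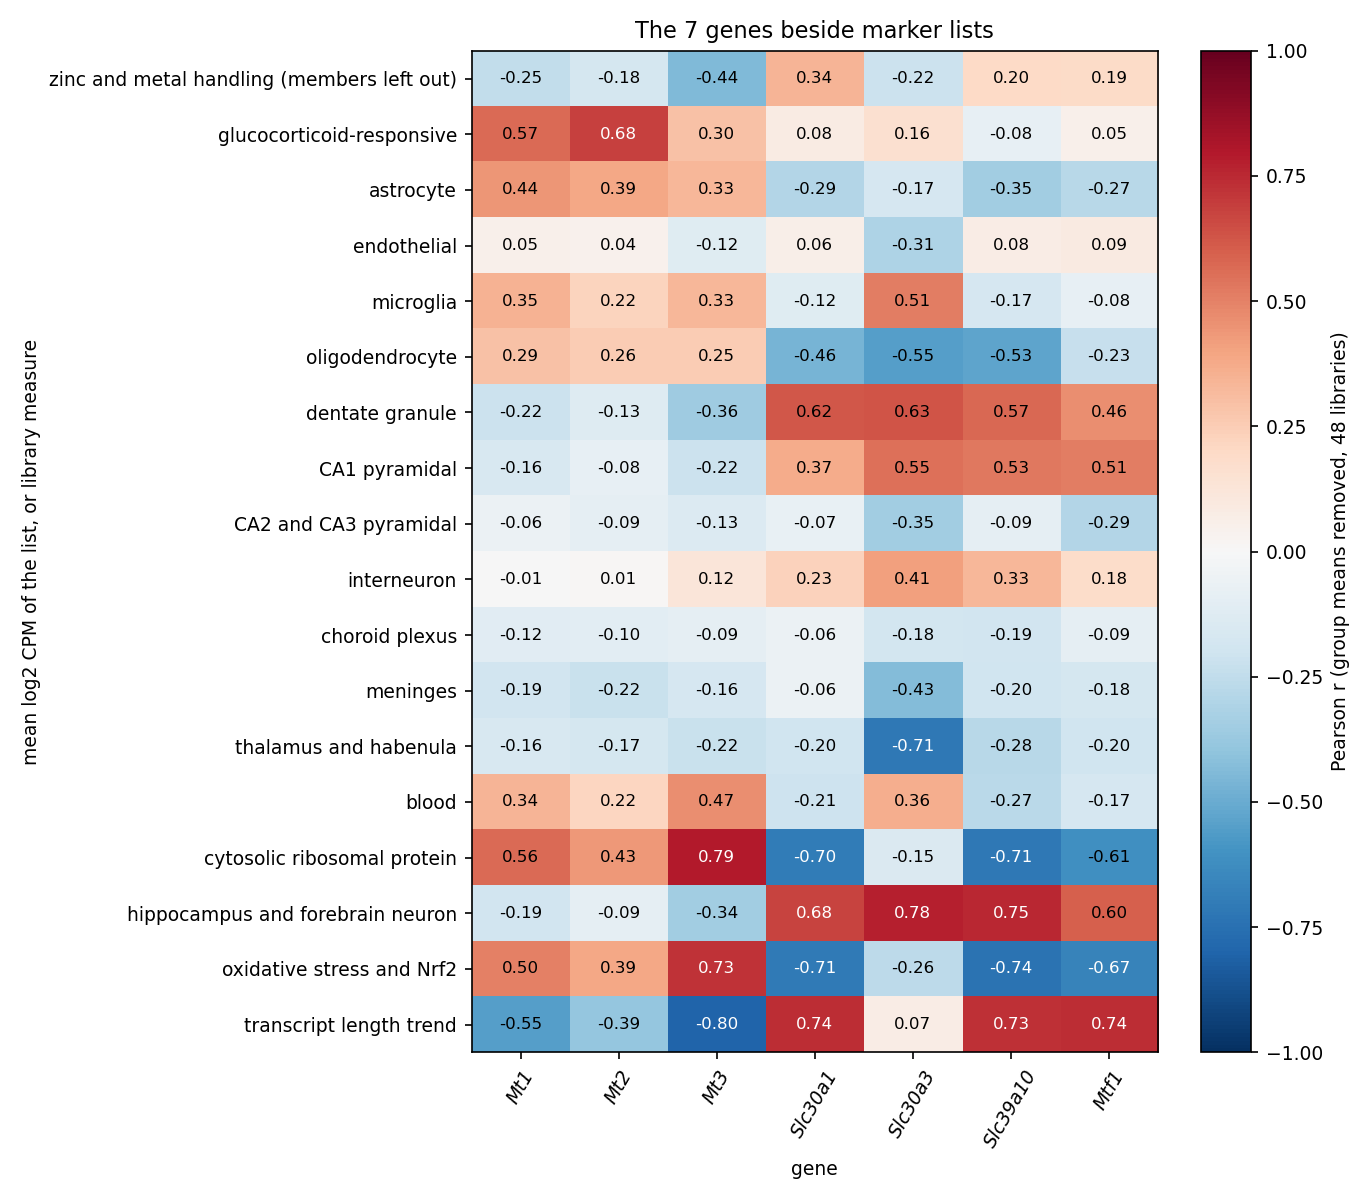
Pearson r of each of the 7 genes with the mean log2 CPM of 17 gene lists and with the transcript length trend (group means removed, 48 libraries). The glucocorticoid row is highest for Mt1 (0.57) and Mt2 (0.68), Slc30a3 is highest with neuron markers (0.78) and lowest with thalamus and habenula markers (-0.71), and the ribosomal protein row and the length trend row have opposite signs for 7 of 7 genes, with Slc30a3 nearest 0 in both (-0.15 and 0.07).

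Outside the 7, the genes most like each member over 48 libraries were named by r with group means removed, among 11822 genes. For Mt1 they were Tsc22d4 (r = 0.74), Aldoc (0.71, also on the astrocyte list), Arrdc2 (0.71, also on the glucocorticoid list), Klf15 (0.67) and Sdc4 (0.67). For Mt2 they were Arrdc2 (0.72), Sdc4 (0.72), Klf15 (0.70), Plekhf1 (0.70) and Fam83d (0.69), so 3 names are shared with Mt1. Mt3 was most like Dpm2 (0.84), Atox1 (0.83), Cox8a (0.83), Uqcr11 (0.83) and Tomm7 (0.83), and these were 0.34 to 0.47 with the length trend removed.

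With the members left out, the transporters had higher r with their named genes than the metallothioneins did, before the length trend was removed. The values of Mtf1 overlapped those of Mt3. With the length trend removed, only Slc30a3 and Slc39a10 kept higher values than the metallothioneins. Slc30a3 was most like Nrgn (0.93), which is on the neuron list, then Plppr2 (0.91), Pgbd5 (0.88), Tmem198 (0.88) and Asphd2 (0.88), and these were 0.88 to 0.93 with the length trend removed. Slc39a10 was most like Zmym2 (0.92), Pgm2l1 (0.92), Cacna2d1 (0.91) and Nlgn1 (0.91). Slc30a1 was most like Tbl1xr1 (0.86), Pgm2l1 (0.85), Ntrk3 (0.85), Paqr9 (0.85) and Vcpip1 (0.85), and Mtf1 most like Spred2 (0.85), Plcl1 (0.83), Map3k13 (0.83), Tanc2 (0.82) and Dip2c (0.82). With the length trend removed the Slc39a10 values were 0.79 to 0.83, those of Slc30a1 0.62 to 0.65 and those of Mtf1 0.53 to 0.66.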

How the data were processed

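The deposited table holds counts per gene, which the authors made with Trim Galore 0.6.9, STAR 2.7.10b and featureCounts 2.0.6 on GRCm39, per the submitters' processing notes. Strand and multi-mapping settings are not given in the sources used here. From the counts as deposited, 51884 of 57126 identifiers were matched to a symbol, holding 99.5% of counts. Counts were scaled by TMM and filtered with filterByExpr, leaving 16360 genes. edgeR 4.0.16 in R 4.3.3 fitted all 48 libraries with a term per group by its quasi-likelihood test, gave 20 contrasts and adjusted p by Benjamini-Hochberg at 0.05. Standard errors were derived from the F statistic. The median standard error between 2 groups was 0.161 on the log2 scale, which sets the precision. Covariation used log2 CPM (prior count 2) with group means removed, and 100000 permutations within groups. Lengths came from GENCODE on GRCm38 and covered 98.4% of tested genes.

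The 7 members and all lists were chosen with earlier results of these data known. Named genes were the members, the 2 zinc genes of smallest p per exposure comparison, the 5 genes most like each member, and the 2 lists with the largest absolute r with it. The astrocyte, single neuron type and Mt3 glucocorticoid values were added after they were seen. So were the neuron marker values of Slc30a1 and Mtf1. One gene that the rule names is not reported here. Alternatives were DESeq2 1.42.0, limma 3.58.1 voom with and without library weights, other scalings, no filter, only the groups compared, the length trend, a replicate block and each replicate left out. The form of the edgeR deviances, a robust prior, library totals from before the filter, leaving out 3 libraries by their length trend, and the first transcript as the length for levels were chosen after seeing the data. No 2 libraries of a group agreed within sampling noise, and the model fits and the permutation test were tested on simulated data.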

Additional observations from a re-analysis of the deposited data

Results flagged for a closer look

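Of 56 sets of 6 libraries checked (7 genes in 8 groups), 2 held a library far from the others, and chance gives about 1 in 20. Mt1 in female Pb + Mn replicate 3 was 321 CPM, against 147 to 194 CPM in the other 5 animals of the group. The same library held the highest Mt2 value of its group, 49.5 CPM. Mt3 in female Mn replicate 5 was 264 CPM, against 333 to 371 CPM in the others.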

How the results depend on the processing

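Of the counts of members called, 650 of the values under other settings equalled or stayed near those reported. The exception was Pb + Mn against Pb in males, where leaving out 1 replicate gave 0 to 1 members called (Mtf1, without male Pb 2). In that comparison limma voom with library weights called 471 genes in all, against 0 in the reported fit, and no member. With the replicate number as a block 0 members were called in every comparison and 12 of 21 pairs passed. No compared pair of groups had all 6 same-numbered correlations above 0.1, so the numbers were not taken to pair the animals. Male Mn with female Pb, which were not compared, had all 6 above 0.1 (mean r = 0.34, and -0.07 between other numbers). Over all pairs of groups the same-numbered mean ran from -0.18 (male Mn with female Pb + Mn) to that 0.34. Structure shared by replicate number is thus not excluded. With the transcript length trend as a covariate, Slc39a10 for Pb against control in males turned to 0.038 (0.036 with the block as well). Slc39a10 for Pb + Mn against Pb in males turned to -0.18 (-0.18), and Mt1 there turned to 0.10 (0.095). With the trend removed 5 pairs passed, and r turned to 0.074 for Mt1 with Slc30a1, 0.18 for Mt3 with Slc30a1, 0.038 for Mt3 with Slc39a10 and 0.18 for Mt3 with Mtf1; the cause was not tested. A further 322 fold changes changed sign by less than 1 standard error. Depth limits Mt2 most, with as few as 110 counts in a library.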
